A study of Mus musculus with 24 samples.

Results

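The transcripts of 8 genes made by red blood cells were followed through the brains of E14.5 mouse embryos. They were the adult beta globin genes Hbb-bs and Hbb-bt, the embryonic beta globin genes Hbb-y and Hbb-bh1, the adult alpha globin genes Hba-a1 and Hba-a2, the embryonic alpha globin gene Hba-x, and Alas2, which encodes the erythroid enzyme of the first step of heme synthesis. The genes were chosen by name, and all 8 were found among the 54446 genes of the count tables. Each brain had been cut into a secondary prosencephalon piece (SP) and a piece with diencephalon, midbrain and hindbrain (DMH), and polyadenylated RNA of each piece was sequenced as a stranded library of its own. Tfap2b+/+ embryos (controls) were compared with Tfap2b-/- littermates (mutants), both from crosses of heterozygous parents. In the mutant allele a PGK-neo cassette interrupts an exon of Tfap2b, a transcription factor gene. The sources differ on the mutant genotype, since the labels and most of the study's text give Tfap2b-/-, the last sentence of its sequencing methods gives Vgat-Tfap2b-/- (the name used elsewhere in the study for a deletion in GABAergic neurons) and the legend of a supplementary plot gives Tfap2b+/-. The labels are followed here, and no agent is named for either group. There were 3 embryos of each labelled sex and genotype, 12 embryos and 24 libraries in all. SP and DMH libraries that carry the same sex, genotype and replicate number were taken as pieces of the same embryo, which the labels do not state outright, and each value given for an embryo rests on it. Strain background, litter and collection day of each embryo are not given.

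Early in development, red cells come from the yolk sac as primitive erythroid cells, which circulate with their nuclei and make embryonic globin chains. Definitive red cells from the fetal liver then take over and make adult chains. The mix of embryonic and adult globin transcripts thus depends in part on the mix of both red cell generations in the circulation. Hbb-bh1 is used earliest by primitive cells and Hbb-y later in their maturation, and Hba-x encodes the zeta-like alpha chain that pairs with them. Blood is not washed out of an embryonic brain before dissection unless it is perfused, so bulk RNA of the brain carries red cell transcripts from its vessels. In such bulk samples, fewer red cells and less RNA per red cell cannot be told apart.

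On the GRCm38 assembly, the beta genes lie on the minus strand of chromosome 7. Hbb-bt is at chr7:103812524-103813996, Hbb-bs at chr7:103826534-103828096, Hbb-bh1 at chr7:103841637-103843164 and Hbb-y at chr7:103851749-103853216. The alpha genes lie on the plus strand of chromosome 11, with Hba-x at chr11:32276400-32278116, Hba-a1 at chr11:32283511-32284465 and Hba-a2 at chr11:32296489-32297298. Alas2 is on the plus strand of the X chromosome at chrX:150547375-150570638.

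Both adult pairs are near copies, and this set what could be counted. Over the coding sequence Hba-a1 and Hba-a2 differed at 1 of 429 bases (C381T, Hba-a1 base first, counted from the A of the start codon), and Hbb-bs and Hbb-bt differed at 1 of 444 bases (C417T, Hbb-bs base first). The stretches of 60 coding bases around these positions follow here, together with the same stretch of the embryonic beta genes, since they show how little of an adult globin read can be placed. Capitals mark the bases that differ within the adult pair, and in Hbb-y and Hbb-bh1 the bases that differ from Hbb-bs. The alpha stretches are at chr11:32284313-32284372 and chr11:32297130-32297189 (plus strand), and the beta stretches are at chr7:103826669-103826728, chr7:103812660-103812719, chr7:103851878-103851937 and chr7:103841756-103841815 (minus strand), all within coding exons.
Hba-a1: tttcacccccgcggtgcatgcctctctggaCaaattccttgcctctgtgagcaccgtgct
Hba-a2: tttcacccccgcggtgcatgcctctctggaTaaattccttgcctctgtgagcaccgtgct
Hbb-bs: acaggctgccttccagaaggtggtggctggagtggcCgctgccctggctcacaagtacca
Hbb-bt: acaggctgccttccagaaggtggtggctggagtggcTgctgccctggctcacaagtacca
Hbb-y: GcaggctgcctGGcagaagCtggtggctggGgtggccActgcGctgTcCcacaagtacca
Hbb-bh1: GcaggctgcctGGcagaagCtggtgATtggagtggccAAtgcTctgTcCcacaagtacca

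In this stretch Hbb-y differed from Hbb-bs at 9 bases and Hbb-bh1 at 11. Over the whole coding sequence, identity was 99.8% within each adult pair, 74.3% between Hbb-bs and Hbb-y, and 64.1% between Hba-a1 and Hba-x. Of the 100-base windows of a transcript, 62.6% of those of Hbb-bs and 54.8% of those of Hbb-bt also occurred in the partner gene, as did 56.5% for Hba-a1 and 74.5% for Hba-a2. For Hbb-y, Hbb-bh1, Hba-x and Alas2 the share found in other globin genes was 0. The deposited gene counts leave out pairs with more than a single place in the genome, so the adult globin counts are lower than the number of molecules sequenced would give, and the split within each adult pair is uncertain. A search of all 141767 GENCODE vM21 transcripts on both strands found no other gene that holds a 100-base window of a globin gene beyond these pairs. For Alas2, 11.0% of windows lay in Apex2, its neighbour on the opposite strand, which the stranded counts tell apart. Near matches and the genome outside transcripts were not searched.

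The promoters of the main adult and the main embryonic beta gene are shown because the ratio of their transcripts differed widely between embryos. The bases from -112 to -11 before the RefSeq gene start (GRCm38.p6, minus strand) are at chr7:103827939-103828040 for Hbb-bs and chr7:103853218-103853319 for Hbb-y. The main Hbb-bs transcript of GENCODE vM21 starts at base 103827928, but the gene interval given above also takes in a minor transcript that starts upstream of the printed stretch, and the first 29 printed bases are in an exon of it. Capitals mark short strings known from globin promoters, a CACCC box, a CCAAT box and an A/T-rich box near the start, spelled TATAA in Hbb-bs. In Hbb-y the last one is CATAA.
Hbb-bs promoter: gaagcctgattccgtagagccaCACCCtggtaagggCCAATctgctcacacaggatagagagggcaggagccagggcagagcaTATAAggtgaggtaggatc
Hbb-y promoter: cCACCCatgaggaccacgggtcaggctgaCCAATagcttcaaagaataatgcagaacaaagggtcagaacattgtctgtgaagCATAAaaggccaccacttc

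Over the 250 bases before the start, the promoters of Hbb-bs and Hbb-y were identical at 50.4% of bases, those of Hbb-bs and Hbb-bt at 69.3%, and those of Hba-a1 and Hba-a2 at 97.6%. CACCC began at -90 in Hbb-bs and -111 in Hbb-y, and CCAAT at -76 and -83. These short strings are common, since CACCC was found on either strand in 52.0% of 32851 promoter windows of this length, CCAAT in 33.8%, TATAA in 22.8% and CATAA in 25.3%. A match describes the letters of the window and is not evidence of a bound factor. RefSeq windows were at hand for 7 of the 8 genes, the other being Hbb-bh1.

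Between 24.7 and 66.8 M (mega) fragments per library were counted on genes. The targeted gene followed the labels in DMH, where Tfap2b was at 281 to 435 CPM (counts scaled to library size by the TMM method) in controls and at 50.4 to 56.6 CPM in mutants, and it was low in SP of both genotypes (2.75 to 4.72 CPM). The tissue labels also held. The summed level of 8 prosencephalon genes was 1598 to 2533 CPM in SP and 185 to 411 CPM in DMH, and that of 9 midbrain and hindbrain genes 1.65 to 14.9 CPM and 208 to 347 CPM. The embryo with the label female control 2 held Y-linked transcripts in both pieces (133 CPM in SP and 122 CPM in DMH, against 125 to 194 CPM in male libraries), so its sex label goes against its RNA. Female mutant 3, which the study left out of its tests, had 801 CPM of skeletal muscle transcripts in DMH (other DMH libraries 6.11 to 9.09 CPM) and 3376 CPM of meninges transcripts. SP of male mutant 3 had 158 CPM of meninges transcripts, against at least 501 CPM in the other SP libraries, and SP of male mutant 1 had the highest share of unmapped fragments (9.98%). In DMH, the hindbrain genes Hoxa2, Hoxb2, Hoxb3 and Hoxb4 summed to 90.4 to 112 CPM in 8 embryos, but to 0.0378 CPM in female control 1, 1.68 CPM in female mutant 1, 0.175 CPM in female mutant 2 and 14.4 CPM in male mutant 2. These DMH pieces therefore do not hold the same tissue.

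Divided by exon length, the adult gene Hbb-bs was the most abundant of the 8 genes in 14 of 24 libraries and the embryonic gene Hbb-y in the other 10. Over the 24 libraries Hbb-y was at 458 ± 304 CPM per kb (mean ± SD, n = 24) and Hbb-bs at 442 ± 102 CPM per kb. Hba-a1 (164 ± 40.4 CPM per kb) and Hbb-bt (151 ± 34.9 CPM per kb) followed. Then came Hba-a2 (79.6 ± 17.7 CPM per kb) and Hba-x (67.5 ± 43.0 CPM per kb), then Alas2 (9.53 ± 2.04 CPM per kb), and Hbb-bh1 was lowest (3.24 ± 2.36 CPM per kb). Hbb-y and Hbb-bs, Hba-a1 and Hbb-bt, and Hba-a2 and Hba-x did not differ beyond their spread. The place of Hbb-y depended on the embryo, and it was below Hbb-bt in 4 libraries, with 80.9 against 134 CPM per kb in SP of male control 1. The 4 adult globin levels are underestimates for the reason given above. Per 1000 windows of 200 bases found in no other globin transcript, the means were 1715 CPM for Hbb-bs and 668 CPM for Hbb-y, and per kb of the main transcript alone 541 and 458 CPM. Counts per library ran from 9 to 170 fragments for Hbb-bh1, and were at least 369 for each of the other 7 genes. The spread was far wider for the embryonic genes than for the adult genes and Alas2, as the plot of levels by library shows.

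**Figure D1:**
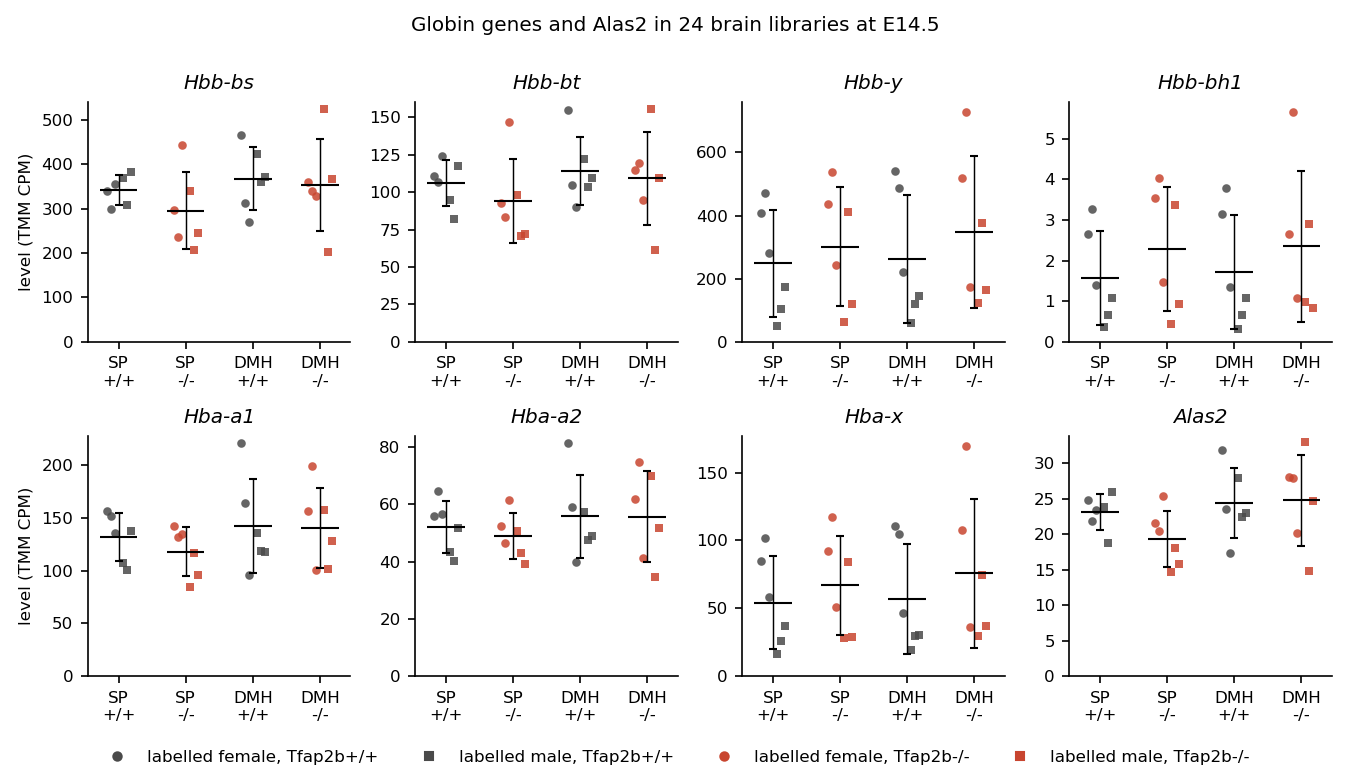
Level of each of the 8 genes in CPM (linear axes from 0), 1 panel a gene, with SP and DMH of controls (+/+, grey) and mutants (-/-, red) side by side, 1 point for each library, and mean and SD as bars (n = 6). Hbb-y spreads from 51.2 to 727 CPM and Hbb-bs from 201 to 525 CPM, and controls and mutants overlap for every gene.

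Hbb-bs is an adult beta gene. In SP its lowest, median and highest level was 300, 347 and 382 CPM in the 6 controls and 207, 271 and 443 CPM in the 6 mutants. In DMH it was 271, 366 and 466 CPM in controls and 201, 350 and 525 CPM in mutants. Mutants spanned the whole control range in both pieces. The lowest values of Hbb-bs were those of male mutant 2, at 207 CPM in SP and 201 CPM in DMH, and the highest was DMH of male mutant 1 at 525 CPM, although its SP was at 341 CPM.

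Hbb-bt, the second adult beta gene, was at 82.2, 109 and 124 CPM in SP controls and at 70.8, 87.8 and 147 CPM in SP mutants. In DMH it was at 89.9, 107 and 155 CPM in controls and at 61.0, 112 and 156 CPM in mutants. Its lowest values also belonged to male mutant 2. The per-length ratio of Hbb-bs to Hbb-bt stayed between 2.58 and 3.58 over the libraries (2.95 ± 0.270, n = 24).

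Hba-a1 and Hba-a2 are the adult alpha genes. Hba-a1 was at 101, 137 and 156 CPM in SP controls, 84.8, 125 and 143 CPM in SP mutants, 95.7, 128 and 221 CPM in DMH controls and 101, 143 and 199 CPM in DMH mutants. Hba-a2 was at 40.1, 53.8 and 64.6 CPM in SP controls, 39.3, 48.7 and 61.6 CPM in SP mutants, 40.0, 53.2 and 81.6 CPM in DMH controls and 34.6, 56.8 and 74.6 CPM in DMH mutants. All 4 groups overlapped. DMH of female control 1 was the highest library for both genes, and the per-length ratio of Hba-a1 to Hba-a2 was 2.06 ± 0.217, with its lowest value of 1.37 in SP of male mutant 1.

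Hbb-y, the embryonic epsilon-type beta gene, differed between embryos by far more than between pieces. The highest embryo was female mutant 2, with 538 CPM in SP and 727 CPM in DMH, and the lowest male control 1, with 51.2 and 60.3 CPM. Among controls, female control 2 had 472 and 487 CPM, female control 1 had 407 and 540 CPM, female control 3 had 282 and 220 CPM, male control 3 had 172 and 146 CPM, and male control 2 had 104 and 119 CPM. Among the other mutants, female mutant 1 had 436 and 520 CPM, male mutant 2 had 410 and 377 CPM, female mutant 3 had 243 and 172 CPM, male mutant 3 had 120 and 163 CPM, and male mutant 1 had 63.0 and 123 CPM. High and low embryos thus occurred in both genotypes, and a high embryo was high in both of its pieces.

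Hba-x and Hbb-bh1 followed the same embryos. Hba-x was at 117 CPM in SP and 169 CPM in DMH of female mutant 2, and at 16 and 19.1 CPM in male control 1. Hbb-bh1 was at 4.02 and 5.65 CPM in female mutant 2 and at 0.357 and 0.320 CPM in male control 1. Between the highest and the lowest embryo (geometric mean of both pieces), Hbb-bh1 differed 14.1-fold, Hbb-y 11.2-fold and Hba-x 8.05-fold, whereas Hbb-bs differed 2.07-fold, Hbb-bt 2.00-fold, Hba-a2 1.75-fold, Alas2 1.72-fold and Hba-a1 1.70-fold. Hbb-y stayed at 118 to 194 times Hbb-bh1 per length (149 ± 24.4, n = 24).

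The ratio of embryonic to adult beta globin, (Hbb-y + Hbb-bh1) over (Hbb-bs + Hbb-bt) per exon length, placed the 12 embryos in one order that was the same in both pieces. It was lowest in male control 1 (0.132 in SP and 0.132 in DMH), followed by male mutant 1 (0.172 and 0.217), male control 2 (0.321 and 0.307), male control 3 (0.412 and 0.366) and male mutant 3 (0.455 and 0.407). Female mutant 3 (0.491 and 0.486) and female control 3 (0.70 and 0.728) stood in the middle. The ratio was above 1 in female control 1 (1.08 and 1.04), female mutant 1 (1.34 and 1.31), female control 2 (1.39 and 1.39), male mutant 2 (1.76 and 1.72) and female mutant 2 (2.01 and 1.89). The 4 embryos whose DMH was low in Hox transcripts (0.0378 to 14.4 CPM) were all among these 5, and of the 8 other embryos (90.4 to 112 CPM) 1 was, female control 2. The part of the dissection in the ratio was not tested.

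The highest and lowest embryo differed 14.8-fold in this ratio, and the pieces of one embryo by at most 1.26-fold (male mutant 1). On the log2 scale the SD between embryos was 1.27 and the SD of one piece about its embryo 0.09. Across the 12 embryos Pearson's r of the log2 ratio in SP with that in DMH was 0.995. Each point shares its embryo and its blood, and r is given as a description. The mean DMH minus SP difference was -0.02 on the log2 scale (SD 0.13, n = 12), and it was positive in 3 of 12 embryos.

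**Figure D2:**
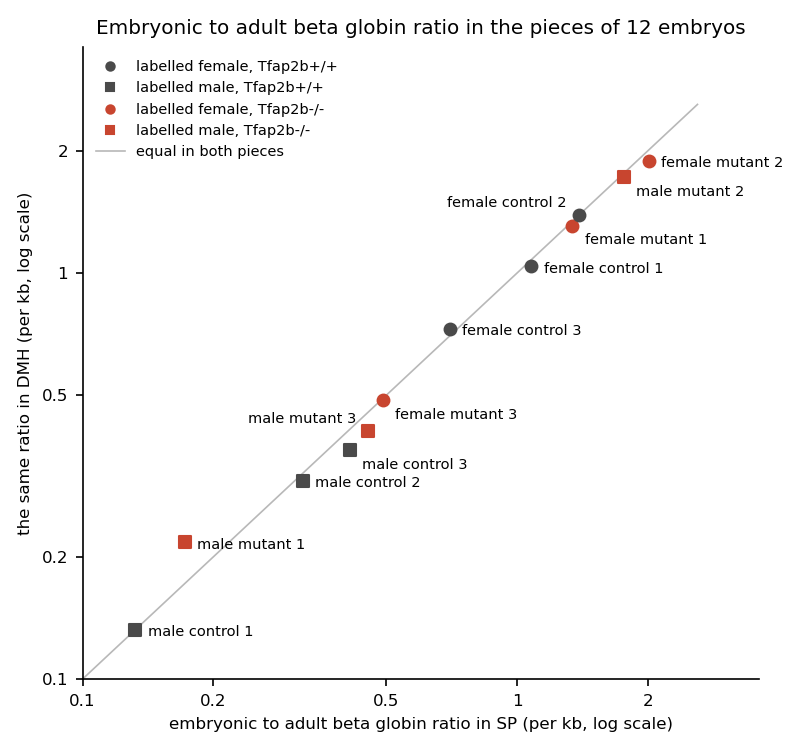
Ratio of embryonic to adult beta globin per exon length in SP (horizontal) and DMH (vertical) of each of the 12 embryos, both on log axes, with the line of equality. The embryos run from 0.132 in both pieces (male control 1) to 2.01 and 1.89 (female mutant 2), close to the line, and controls and mutants are mixed along it.

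As a share of beta globin per length, the embryonic genes made up between 11.7 and 66.8% (median 37.0%). Whether the embryonic genes passed the adult genes depended on how length was counted. With each gene divided by the number of its 200-base windows that occur in no other globin transcript, the ratio ranged from 0.0537 to 0.834 and was above 1 in 0 libraries, in place of 10. The fold between the highest and lowest library was 15.5 by that division and 15.2 by exon length. The absolute ratio thus depends on how the near-identical adult pair is counted, and the fold between libraries hardly did.

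The alpha genes gave a like order over a narrower range. Hba-x over the sum of Hba-a1 and Hba-a2, per exon length, was lowest in male control 1 (0.0862 in SP and 0.0804 in DMH) and highest in female mutant 2 (0.536 and 0.506), a 6.25-fold difference between embryos. Male mutant 2 had 0.430 and 0.449, and female control 2 had 0.382 and 0.384. Between pieces, the ratio differed by at most 1.58-fold, again in male mutant 1 (0.167 and 0.106). The embryonic share of alpha globin was 7.45 to 34.9%. All beta globin together stood to all alpha globin as 3.38 ± 0.213 per length (n = 24, range 2.95 to 3.76).

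By genotype, the embryo values of the beta ratio were 0.666 ± 0.482 in controls (n = 6, from 0.132 to 1.39, median 0.551) and 1.02 ± 0.747 in mutants (n = 6, from 0.193 to 1.95, median 0.906). The alpha ratio was 0.224 ± 0.115 in controls and 0.311 ± 0.161 in mutants. Both pairs of ranges overlapped over most of their length. On the log2 scale the mutant minus control difference of the beta ratio was 0.55 in SP (SD between embryos of one genotype 1.32) and 0.59 in DMH (SD 1.27), less than 1 SD in either piece. Leaving out single embryos moved it between 0.16 and 0.98 in SP and between 0.21 and 0.95 in DMH, with the higher ends both reached without male mutant 1.

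Embryos labelled male and female also overlapped. The beta ratio was 1.15 ± 0.522 in labelled females (0.488 to 1.95) and 0.533 ± 0.602 in labelled males (0.132 to 1.74), where male mutant 2 was the one male above 1. The embryo labelled female control 2, whose RNA held Y-linked transcripts, was at 1.39. No test was made, and litter and exact age, which could differ between embryos, are not given.

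The amount of globin RNA varied much less than its composition. The 7 globin genes took 0.0585 to 0.160% of the counts of a library. In SP their sum was 1158 CPM in female control 1, 1201 CPM in female control 2, 1013 CPM in female control 3, 683 CPM in male control 1, 661 CPM in male control 2 and 899 CPM in male control 3. SP of mutants had 1115, 1157 and 1081 CPM in females 1 to 3 and 666, 935 and 603 CPM in males 1 to 3. Globin levels of SP were above 1000 CPM in all 6 embryos labelled female, and below in all 6 labelled male, and each genotype held low and high embryos. One of the 6 labelled female is female control 2 (1201 CPM), whose RNA held Y-linked transcripts.

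In DMH the sum was 1578, 1236 and 764 CPM in female controls 1 to 3 and 819, 780 and 824 CPM in male controls 1 to 3. It was 1323, 1635 and 776 CPM in female mutants 1 to 3, and 1062, 854 and 857 CPM in male mutants 1 to 3. The highest values were those of female mutant 2, female control 1 and female mutant 1, which are also the 3 DMH pieces with the lowest Hox transcripts, and the share of the dissection in these values was not tested. DMH was higher than SP in 8 of 12 embryos, by 0.15 on the log2 scale on average (SD 0.37). The mutant minus control difference was -0.02 in SP (SD 0.39) and 0.12 in DMH (SD 0.43), both within the spread between embryos. Leaving out single embryos moved it between -0.11 and 0.094 in SP and between -0.0070 and 0.27 in DMH, so its sign was not settled.

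The adult and embryonic parts of the sum varied to unlike degrees. The summed adult globins differed 1.87-fold between the highest and lowest embryo, and the embryonic globins 10.5-fold. Adult globins summed to 652 ± 76.4 CPM in controls and 599 ± 107 CPM in mutants (n = 6 each), and embryonic globins to 311 ± 220 CPM and 394 ± 256 CPM. The pieces of one embryo differed by at most 1.58-fold in the adult sum and 1.68-fold in the embryonic sum.

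**Figure D3:**
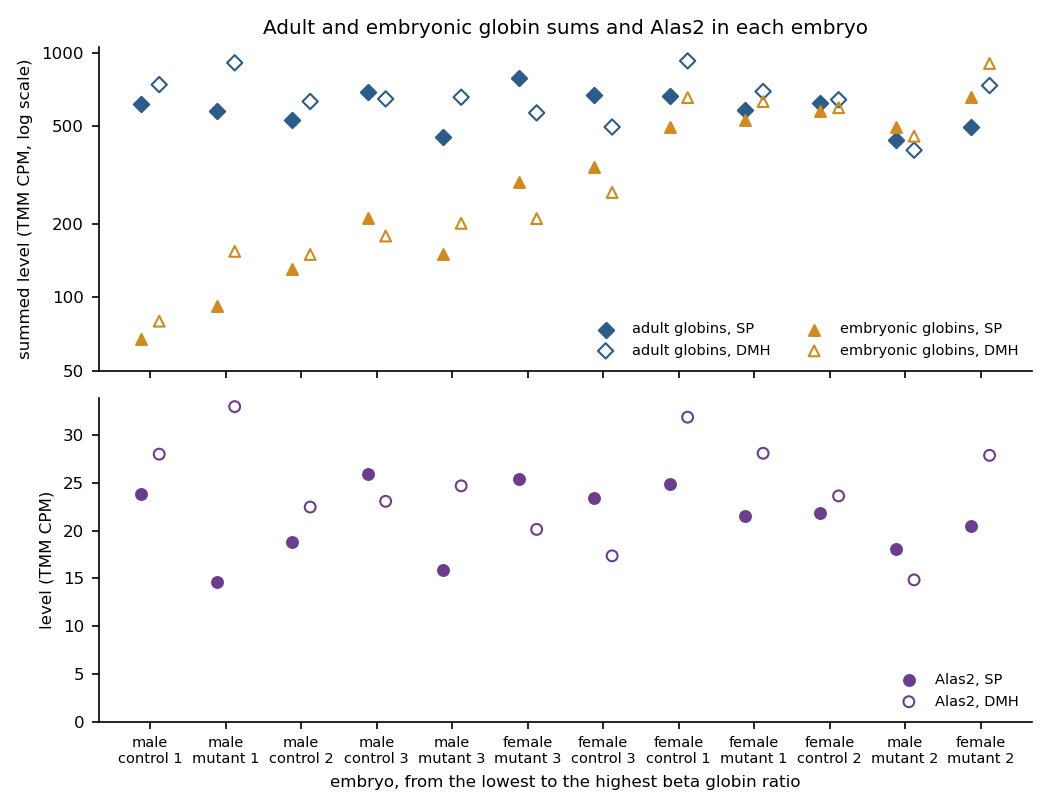
Upper panel, summed adult globins (diamonds) and embryonic globins (triangles) in CPM on a log axis, and lower panel, Alas2 in CPM on a linear axis, for the 12 embryos ordered by their beta ratio, with SP filled and DMH open. The embryonic sum differs 10.5-fold between embryos, the adult sum 1.87-fold and Alas2 1.72-fold, and Alas2 of male mutant 1 lies at 14.6 CPM in SP and 33.0 CPM in DMH.

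Alas2 encodes the enzyme that commits glycine and succinyl-CoA to heme in red cells, and was tied to the adult globins. It was at 18.8, 23.6 and 26 CPM (lowest, median, highest of 6) in SP controls and at 14.6, 19.3 and 25.4 CPM in SP mutants. In DMH it was at 17.4, 23.3 and 31.9 CPM in controls and at 14.8, 26.3 and 33.0 CPM in mutants. The groups overlapped in both pieces. Per 1000 counts of adult globin there were 36.5 ± 1.61 counts of Alas2 in SP controls, 35.3 ± 5.99 in SP mutants, 35.9 ± 1.24 in DMH controls and 37.5 ± 1.73 in DMH mutants. The 12 control libraries ran from 34.5 to 38.6 per 1000. SP of male mutant 2 (41.3), SP of female mutant 2 (41.2) and DMH of female mutant 1 (40.5) lay above that range, and SP of female mutant 3 (32.3) and of male mutant 1 lay below it. SP of male mutant 1 was farthest from the others, with 25.5 per 1000, and also had the highest unmapped share and the lowest Hba-a1 to Hba-a2 ratio. Its DMH had 33.0 CPM of Alas2, the highest value of all.

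The comparison of mutants with controls asks whether loss of Tfap2b alters gene expression in each piece. At the thresholds of the study, FDR below 0.2 with a log2 fold change beyond 0.5 in either direction in edgeR's quasi-likelihood test over all genes, none of the 8 genes was called differentially expressed (DE) in any comparison. In female SP 0 of 8 were called, beside 0.0181% of all 16615 genes tested, and in female DMH 0 of 8, beside 0.00596%. In male SP 0 of 8 were called, beside 0% of all genes, and in male DMH 0 of 8, beside 0.0236%. With both sexes together 0 of 8 were called in SP, beside 0% of 16973 genes, and 0 of 8 in DMH, beside 0.0523% of 17223 genes. DESeq2 also called 0 of the 8 in each comparison. At an unadjusted p under 0.05, edgeR held 3 of the 8 for females in SP and 0 in DMH, 1 for males in SP and 0 in DMH, 4 in SP of both sexes and 1 in DMH of both sexes, and DESeq2 held 4, 0, 2, 1, 4 and 2. With so few genes called in the whole table by these fits, a count of 0 among 8 is near the background. The study reported far more DE genes in female DMH at these thresholds. Why this fit called fewer was not tested. No group here exceeds 6 embryos, and female mutant 3 was in none of these fits.

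In SP of both sexes (6 controls, 5 mutants) adult and embryonic genes had log2 fold changes of opposite sign, none past the threshold. On the log2 scale Alas2 was at -0.32 (SE 0.10, edgeR adjusted p = 0.901), Hbb-bs at -0.35 (SE 0.13) and Hbb-bt at -0.30 (SE 0.12). Hba-a1 was at -0.15 and Hba-a2 at -0.10. The embryonic genes were on the positive side, with 0.93 for Hbb-bh1 (SE 0.43), 0.64 for Hba-x (SE 0.30) and 0.63 for Hbb-y (SE 0.43). For these 8 genes edgeR's adjusted p ran from 0.901 to 0.917. These embryonic values rested on male mutant 2, and without it they were 0.071 for Hbb-y (SE 0.30), 0.42 for Hbb-bh1 (SE 0.32) and 0.27 for Hba-x (SE 0.21). In the same fit the median was -0.12 over 10 endothelium genes and -0.15 over 10 macrophage genes, with 1 of 10 positive in each. Over 9 neural genes it was 0.04, with 8 positive, and 0 genes of these lists were called. The part of these cells in the globin values was not tested.

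In DMH of both sexes the adult genes lay close to 0, between -0.05 for Hbb-bs and 0.09 for Hba-a1, and Alas2 was at 0.08 (SE 0.21, edgeR adjusted p = 0.864). Hba-x was at 0.75 (SE 0.32, edgeR adjusted p = 0.328), Hbb-y at 0.82 (SE 0.39, edgeR adjusted p = 0.340) and Hbb-bh1 at 0.82 (SE 0.43, edgeR adjusted p = 0.355). Hba-x passed the thresholds in 1 setting, without male mutant 1, at 0.86 with an edgeR adjusted p of 0.186. In that fit 531 genes of the table were called, in place of 9. Without male mutant 2, Hba-x was at 0.51, Hbb-y at 0.49 and Hbb-bh1 at 0.50. The median log2 fold change of 9 midbrain and hindbrain genes was -1.14 in DMH of both sexes, -2.37 in that of females and -0.35 in that of males, 0 of them called. Both female mutants of the fit and 1 of the 3 female controls were pieces low in Hox transcripts (1.68, 0.175 and 0.0378 CPM), as was male mutant 2 (14.4 CPM). For 8 choroid plexus genes the median was -0.33 in DMH of both sexes, but -0.80 in females and 0.10 in males, and in SP it was -0.48, -0.14 and -0.83, 0 of them called. The part of these tissues in the globin values was not tested.

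The sexes gave the same signs for the embryonic genes. In females Hbb-y was at 0.32 in SP and 0.60 in DMH, Hbb-bh1 at 0.66 and 0.62, and Hba-x at 0.35 and 0.68. In males Hbb-y was at 0.86 (SE 0.68) in SP and 0.99 (SE 0.59) in DMH, Hbb-bh1 at 1.21 (SE 0.72) and 1.03 (SE 0.61), and Hba-x at 0.85 (SE 0.47) and 0.80 (SE 0.41). Among the 3 male mutants, 1 was high in embryonic globin and 2 were low. Including female mutant 3 lowered the female values to 0.061 in SP and 0.20 in DMH for Hbb-y, 0.31 and 0.18 for Hbb-bh1, and 0.077 and 0.26 for Hba-x. With single female embryos left out, the SP values ran from 0.14 to 0.50 for Hbb-y, 0.35 to 0.93 for Hbb-bh1 and 0.15 to 0.55 for Hba-x, each lowest without female control 3 and highest without female control 2, the embryo with Y-linked transcripts. In DMH of females Hbb-y ran from 0.29 (without female control 3) to 0.84 (without female control 1), Hbb-bh1 from -0.038 (without female mutant 2) to 1.06 (without female mutant 1) and Hba-x from 0.31 to 0.98 (without the same mutants). Without male mutant 2 the male SP value was -0.25 for Hbb-y, -0.01 for Hbb-bh1 and 0.13 for Hba-x. In DMH of males it was 0.37, 0.30 and 0.31. The highest male values were 1.35, 1.68 and 1.19 in SP (each without male control 3), and in DMH 1.29 for Hbb-y and 1.06 for Hba-x (without male mutant 1) and 1.60 for Hbb-bh1 (without male control 3).

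Of the adult genes, Hbb-bt in female SP had the smallest unadjusted p. There it was at -0.38 on the log2 scale (SE 0.07, edgeR adjusted p = 0.848). DESeq2 gave -0.38 with an adjusted p of 0.0208, inside the fold threshold. The female SP levels of Hbb-bt were 111, 107 and 124 CPM in controls and 92.5 and 83.2 CPM in mutants 1 and 2, so these 2 lay below all 3 controls. Female mutant 3, left out of this fit, was at 147 CPM, above every control. In male SP, Alas2 had the largest adult-side value at -0.49 (SE 0.16, edgeR adjusted p = 0.967).

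**Figure D4:**
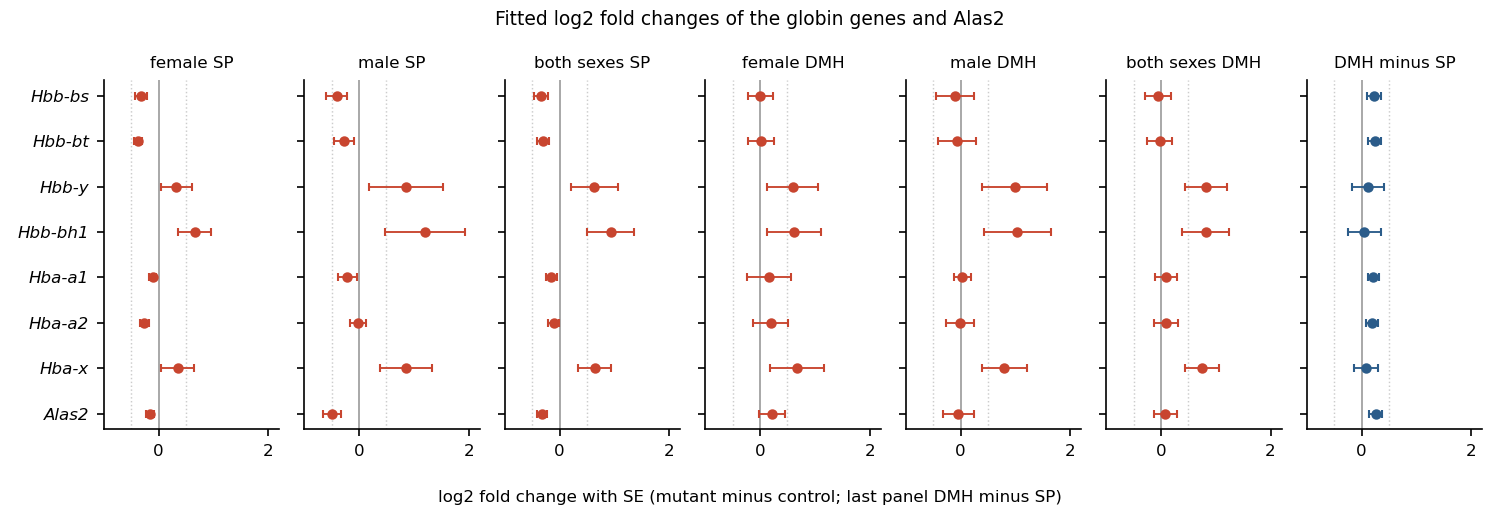
Log2 fold change of each of the 8 genes with its SE, for mutants against controls in SP and DMH of females, males and both sexes (6 panels) and for DMH against SP (last panel), with dotted lines at the fold threshold of 0.5. With both sexes together the embryonic genes lie at 0.63 to 0.93 with wide errors and the adult genes and Alas2 between -0.35 and 0.09, and no gene passes both thresholds.

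The difference in the genotype effect between DMH and SP was tested as an interaction, and 0 of 8 genes were called, beside 0.00565% of 17684 genes. The interaction was positive for 7 of 8 genes, from -0.14 (Hbb-bh1) to 0.40 (Alas2, SE 0.22), with edgeR adjusted p-values of at least 0.999. At an unadjusted p under 0.05 neither edgeR nor DESeq2 held any of the 8, and edgeR held 365 of all 17684 genes.

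Between pieces, all 8 genes had higher mean levels in DMH than in SP, but 0 of 8 were called, beside 36.3% of 17465 genes. The log2 fold change was 0.26 for Alas2 (SE 0.12, edgeR adjusted p = 0.0546), 0.24 for Hbb-bt (SE 0.12, edgeR adjusted p = 0.0859), 0.23 for Hbb-bs (SE 0.13, edgeR adjusted p = 0.103), 0.22 for Hba-a1 (SE 0.11, edgeR adjusted p = 0.0707) and 0.19 for Hba-a2 (SE 0.11, edgeR adjusted p = 0.130). These 5 were under the FDR threshold and inside the fold threshold. At an unadjusted p under 0.05, edgeR held 1 of the 8 (Alas2), beside 12811 of all 17465 genes, and DESeq2 held 2. A low adjusted p was thus common over all genes in this fit, which did not pair the pieces of an embryo. For the embryonic genes the log2 fold change was 0.12 (Hbb-y, SE 0.29), 0.08 (Hba-x) and 0.05 (Hbb-bh1). With the embryo as a block, the error of Hbb-y narrowed (0.18, SE 0.09, edgeR adjusted p = 0.0872), which put Hbb-y under the FDR threshold too. Hbb-bs was at 0.21 (SE 0.08, edgeR adjusted p = 0.0307), and again 0 of 8 were called, beside 37.4% of genes. The blocked edgeR fit held 2 of the 8 at an unadjusted p under 0.05, Hbb-bs and Hbb-bt. Alas2 was no longer held (0.22, SE 0.11, edgeR adjusted p = 0.0842), so the genes held depended on the pairing. Without the block, the median over the 8 genes was 0.20, against 0.006 over all genes. Transcripts of vessel walls had a like median, 0.20 over 10 endothelium genes, 0 of them called, while 10 meninges genes had a median of 0.52 with 5 called (Col1a1, Col1a2, Col3a1, Twist1 and Aldh1a2), and macrophage genes 0.37 with 2 of 10 called (Csf1r and Mrc1). Of the tissue lists, 4 of 8 choroid plexus genes, 6 of 6 skeletal muscle genes, 4 of 9 neural genes, 7 of 8 prosencephalon genes and 9 of 9 midbrain and hindbrain genes were called between the pieces. Whether the content of vessels or meninges takes part in the globin values was not tested.

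Other genes of the red cell were read from the same fits, and 0 were called in any genotype comparison of either piece with both sexes together. Between pieces, all 12 red cell membrane genes tested had positive log2 fold changes (median 0.48). Of these, 5 were called higher in DMH and 0 lower, near the 36.3% of all genes called. With the embryo as a block 4 of 12 were called, beside 37.4% of all genes, Tspo2 being inside the fold threshold (0.46). The 5 called without the block were Sptb, Dmtn, Tmod1, Ermap and Tspo2 (0.52, edgeR adjusted p = 0.0946). Sptb is a spectrin chain of the membrane skeleton (1.84, edgeR adjusted p = 6.3e-11). Dmtn bundles actin there (1.25), Tmod1 caps its actin filaments (1.24) and Ermap is an erythroblast membrane protein (0.92). Dmtn, Sptb and Ank1 were the most abundant of the list (45.2, 37.1 and 22 CPM on average), and neurons use them too. Slc4a1, the anion exchanger band 3, which marks red cells more closely, was at 11.3 CPM on average and at 0.23 on the log2 scale (SE 0.12, edgeR adjusted p = 0.0977), near the values of the adult globins.

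Of 11 other heme synthesis genes 1 was called between pieces, beside 36.3% of all genes. It was the mitochondrial transporter Abcb10 (0.56, higher in DMH), and the median of the list was -0.02. The most abundant were Fech, the enzyme that inserts iron (35.4 CPM on average, log2 fold change -0.10), Alas1, the enzyme used outside red cells (33.7 CPM, -0.02), Abcb10 (30.6 CPM) and Urod (26.3 CPM, -0.41, edgeR adjusted p = 3.4e-05, inside the fold threshold). Genes of this list are used by cells of many kinds, and Alas2 was at 22.9 CPM.

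Of 10 erythroid regulators, Gata1 and Klf1, the master regulators of red cell genes, were at 0.162 and 0.301 CPM on average, the transcription factor gene Nfe2 at 0.406 CPM and Epor, the erythropoietin receptor gene, at 0.472 CPM. Of 7 regulators tested, 2 were called between pieces, beside 36.3% of all genes. Tal1 (4.45, 34.0 CPM on average) and Zfpm1 (1.40, 14.3 CPM) were higher in DMH, both also genes of midbrain neurons. Lmo2 was at 0.48 (20.2 CPM), inside the fold threshold.

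Among genes known to control the globin switch, 5 of 7 were called between pieces, 4 of them lower in DMH, beside 36.3% of all genes. These were Sox6 (-1.51), Myb (-1.31), Bcl11a (-1.25) and Igf2bp1 (-0.90), while Lin28b was higher (1.20). Bcl11a and Sox6, which silence embryonic globin genes in definitive cells, were at 369 and 119 CPM on average, far above Gata1 and Klf1, and neurons of the forebrain express both. The beta ratio, in contrast, differed by -0.02 on the log2 scale between the pieces. Of 7 genes of iron handling and red cell metabolism, Tfr2 (1.63) and Bpgm, which makes the oxygen-affinity regulator bisphosphoglycerate (0.56), were higher in DMH. Prdx2 (496 CPM on average) and the transferrin receptor Tfrc (93.4 CPM) were at -0.17 and 0.01.

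Other blood cells were barely seen. Of 9 white cell genes the sum was 0.951 to 4.55 CPM per library, with Prtn3 at 2.24 CPM on average and Cd3e at 0.00721 CPM. Between pieces 0 of 4 tested were called, beside 36.3% of all genes. With the embryo as a block 1 of 4 was called (S100a9, 0.59, edgeR adjusted p = 0.138), beside 37.4% of all genes. The platelet list summed to 17.8 to 86.7 CPM, mostly from Thbs1 (26.6 CPM on average), which other tissues also make. Pf4, a platelet factor that brain macrophages also express, was at 2.93 CPM and 0.65 higher in DMH on the log2 scale, and Thbs1 was lower (-0.77). Of the other globin genes, cytoglobin (Cygb), which is not a red cell gene, was at 15.8 CPM on average, the neuronal globin Ngb at 0.458 CPM (1.71, called higher in DMH) and myoglobin (Mb) at 0.0709 CPM.

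Likeness was measured as Pearson's r of log2(CPM + 0.5) after each gene's mean in SP and in DMH had been taken off, over the 24 libraries and 14414 genes. The libraries share embryos in pairs, and the values describe these libraries only. With Hbb-bs, r was 0.92 for Hbb-bt, 0.78 for Alas2, 0.67 for Hba-a2 and 0.42 for Hba-a1, but -0.33 for Hbb-y, -0.32 for Hba-x and -0.40 for Hbb-bh1. Hbb-y in turn gave 0.98 with Hba-x and 0.97 with Hbb-bh1, 0.62 with Hba-a1, 0.35 with Hba-a2, 0.15 with Alas2 and 0.002 with Hbb-bt. The 8 genes thus fell into an adult and an embryonic group, with Hba-a1 between them.

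Apart from the members, genes most like Hbb-bs were Trim10, a gene of terminal red cell maturation (0.83), the mitochondrial iron importer Slc25a37 (0.81) and Fech (0.78), followed by Mettl21c (0.68), Tent5c (0.67), Pcdhb14, Kctd6, Gm42528 and Gm35558 (0.61). Trim10, Slc25a37 and Fech are genes used by red cells. Hbb-y was most like Hadha (0.97), Hsd3b6 (0.96), Nt5dc2, Smo, Jam3, Ptbp1, Tead2, Rpl27a, Sec23b and Cdc25b (0.95). Of these Smo, a receptor of hedgehog signalling, Tead2 and Cdc25b, a phosphatase of the cell cycle, are genes of dividing neural precursors and are not restricted to red cells. Over the lists, r with Hbb-bs was positive for 8 of 8 red cell membrane genes and 4 of 11 heme genes, and r with Hbb-y for 2 of 8 and 6 of 11. For 2 further lists the count was higher with Hbb-y, since erythroid regulators were positive for 1 of 3 with Hbb-bs and 3 of 3 with Hbb-y, and genes of iron handling and metabolism for 2 of 6 and 6 of 6. Globin switch regulators were positive for 2 of 6 with either gene. The share of positive r over all genes compared is not given, so these counts have no background beside them. With Hbb-y, Igf2bp1 gave 0.92, Urod 0.86 and Tfrc 0.83, and Ank1 -0.86, Sptb -0.82 and Dmtn -0.78.

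**Figure D5:**
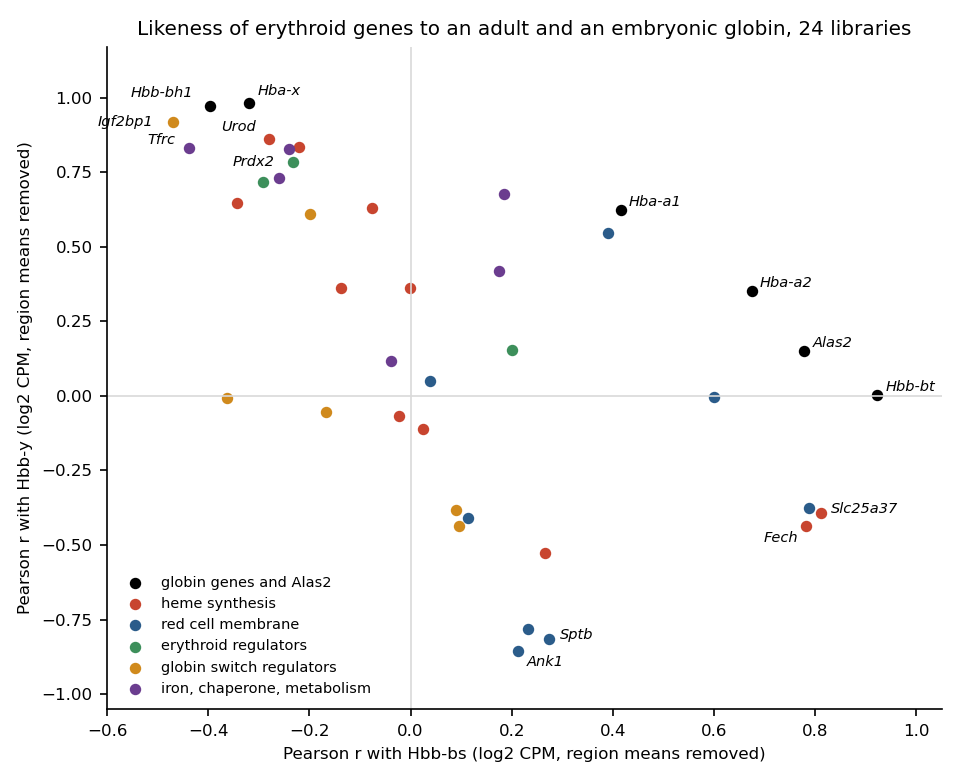
Pearson's r of red cell genes, coloured by list, with Hbb-bs (horizontal) and with Hbb-y (vertical) over the 24 libraries, region means removed. Hbb-bt, Alas2, Slc25a37 and Fech lie at high r with Hbb-bs, while Hba-x (0.98) and Hbb-bh1 (0.97) lie at high r with Hbb-y and below 0 with Hbb-bs.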

How the data were processed

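RNA of 24 libraries (SP and DMH of 12 embryos) was analysed. The authors aligned the read pairs with STAR (mm10) and deposited 1 table of raw counts per library, in read pairs per gene without normalization. The submitters' processing notes name cutadapt 2.4, STAR 2.6.1d and edgeR. Only uniquely mapped pairs are counted. The counts of the strand that dUTP libraries read were used, unstranded counts were an alternative, and 1 count column entered no fit. The 4 lines that name no gene held 5.46 to 9.98% (unmapped), 4.96 to 7.85% (multimapping), 4.68 to 7.46% (unassigned) and 1.10 to 1.62% (ambiguous) of fragments and were left out. Of 54446 identifiers, 54409 matched GENCODE vM21 (GRCm38), 1180 of them only without the version, and 37 did not.

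CPM were scaled by TMM over all 24 libraries. Tests were made in R 4.3.3 with edgeR 4.0.16 (filterByExpr, robust quasi-likelihood fit, Benjamini-Hochberg FDR over all genes tested, thresholds FDR 0.2 and absolute log2 fold change 0.5, 1 fit per comparison), and SE is the absolute log2 fold change over the square root of F. The method was tested on simulated data. Female mutant 3 was left out of the fits, as in the study, leaving 22 libraries. Where both sexes were pooled, the labelled sex was a covariate. Female control 2, which held Y-linked transcripts, thus counted as female in these fits and in those of females. Ratios and sums are descriptions over all 12 embryos, and exon lengths are the union of a gene's exons. Sequences were read from GRCm38 and from RefSeq promoter windows. DESeq2 1.42.0 was an alternative, and Python 3.11.15 with pandas 2.3.3 and matplotlib 3.10.9 made summaries and figures.

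The members and the 16 further gene lists were chosen with earlier results of these data known. Named genes are the members, up to 4 most abundant genes of a list, every gene of the blood, vessel, macrophage and meninges lists past the thresholds (other lists by count), and those among the 10 genes most like Hbb-bs and Hbb-y. Klf1, Gata1, Nfe2, Epor, Mb, Cd3e and Lmo2 were also named after their values were seen. The lists were other globins, heme synthesis, red cell membrane, erythroid regulators, globin switch regulators, erythroid iron and metabolism, platelets, white blood cells, endothelium, macrophages, meninges, skeletal muscle, choroid plexus, neural genes, prosencephalon, and midbrain and hindbrain. In the neural list, sums were 6355 to 8411 CPM in SP and 7817 to 8545 CPM in DMH. One listed symbol, Ahsp, had no match, and some genes of the lists and of the likeness set are not reported here.

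No pair of libraries of a condition was a copy of another (lowest chi-square per gene 7.01). SP and DMH with the same number were taken as pieces of the same embryo, since the design is 12 embryos with 2 areas each, although no source says that the numbers match across areas, and the correlation of their deviations ran from 0.0809 (male mutant 3) to 0.546, with all others above 0.1. Nothing says that embryos of a group came from separate litters, so p-values measure the spread between these embryos. Alternatives were RLE size factors, other count filters, unstranded counts, DESeq2, replicate blocks, inclusion of female mutant 3, an FDR under 0.05, a single fit of the 8 groups, ratios without division by exon length, plain CPM, and each embryo left out in turn. The divisions by unique windows and by the main transcript were added after the data were seen.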

Additional observations from a re-analysis of the deposited data

Results flagged for a closer look

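Of 44 groups of 6 libraries tested for a library far from the others, 1 stood out, and chance gives about 1 in 20. Hbb-bt in SP mutants was at 147 CPM in female mutant 3, while the other SP mutants had 70.8 to 98.4 CPM, a gap of 0.637 of the range of the group. The same library had the highest Hbb-bs of SP, at 443 CPM. In its DMH piece Hbb-bt was at 94.9 CPM.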

How the results depend on the processing

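With edgeR as reported, 0 of the 8 genes were called in each of the 8 comparisons. Without a filter on low counts 1 was called in female SP, Hbb-bh1 (0.66, edgeR adjusted p = 0.160), and leaving out single embryos gave 0 to 1 in DMH of both sexes, where Hba-x was called without male mutant 1. Under the other settings run, the count was 0 in each comparison. Of the log2 fold changes under other settings 504 kept their direction and side of the thresholds, 1 passed them and 19 changed sign, and with single embryos left out the numbers were 488, 1 and 39. All 93 alternative values of the beta ratio and of the globin sum lay within 1 SD of the reported value. That SD is the spread between embryos, so the bound is wide and small shifts could not pass it. The mutant minus control difference of the globin sum changed sign in both pieces when single embryos were left out (SP -0.11 to 0.094, DMH -0.0070 to 0.27). Control and mutant embryos share only a replicate number, and the correlation of same-numbered deviations ran from -0.190 to 0.582. With that number as a block, 0 of the 8 genes were called, and female DMH values became -0.12 for Hbb-bs, -0.11 for Hbb-bt, -0.095 for Hba-a1 and -0.017 for Hba-a2, those in DMH of both sexes -0.029 for Hba-a1, -0.037 for Hba-a2 and -0.042 for Alas2. The embryo as a block in the interaction gave 0.027 for Hbb-bh1. The block moved the genes called in the whole table from 3 to 71 in female SP, from 1 to 41 in female DMH and from 4 to 8 in male DMH, and DESeq2 called 6, 76 and 13 there, 7 in male SP and 27 in SP of both sexes (edgeR 0 and 0), and 51 in DMH of both sexes (edgeR 9). With female mutant 3 included, female DMH values were -0.026 for Hbb-bs, -0.083 for Hbb-bt, -0.067 for Hba-a1 and -0.019 for Hba-a2, and DMH of both sexes gave -0.017 for Hba-a1 and -0.010 for Hba-a2. Hba-a2 in male SP was at 0.0030 with RLE size factors and 0.0029 with DESeq2, and in male DMH at 0.0037 without the filter, 0.0014 with unstranded counts and 0.0012 in a single fit of all groups. Where leaving out single embryos changed a sign, female DMH values ran from -0.15 to 0.27 (Hbb-bs), -0.14 to 0.28 (Hbb-bt), -0.038 to 1.06 (Hbb-bh1), -0.11 to 0.47 (Hba-a1) and -0.033 to 0.48 (Hba-a2). Male SP values ran from -0.25 to 1.35 (Hbb-y), -0.0054 to 1.68 (Hbb-bh1) and -0.12 to 0.10 (Hba-a2), and male DMH values from -0.45 to 0.19 (Hbb-bs), -0.41 to 0.23 (Hbb-bt), -0.13 to 0.18 (Hba-a1), -0.27 to 0.23 (Hba-a2) and -0.33 to 0.22 (Alas2). In DMH of both sexes they ran from -0.22 to 0.10 (Hbb-bs), -0.19 to 0.12 (Hbb-bt), -0.020 to 0.21 (Hba-a1), -0.032 to 0.21 (Hba-a2) and -0.050 to 0.22 (Alas2), between pieces from -0.019 to 0.14 (Hbb-bh1), and for the interaction from -0.31 to 0.068 (Hbb-bh1) and -0.047 to 0.24 (Hba-x). The cause of these changes was not tested. Depth limits Hbb-bh1 most, with 9 to 170 counts per library.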

Other observations

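Hsd3b6, a steroid dehydrogenase gene of no list here, stood out among the genes most like Hbb-y because its own level varied as widely as that of a globin. Its SD on the log2 scale within a piece was 0.92, against 0.13 to 0.31 for the other 9 genes of that set. It was at 4.45 CPM in SP and 6.14 CPM in DMH of female mutant 2 and at 5.01 and 3.99 CPM in female control 2, but at 0.439 and 0.604 CPM in male control 1 and at 0.436 and 1.04 CPM in male mutant 1. It was singled out after its values were seen, and r with Hbb-y was 0.96 over 24 libraries that share embryos in pairs.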
